A study of Mus musculus with 12 samples.

Results

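The genes described here encode the mitochondrial solute carriers of family 25 (SLC25), found as all names of the form *Slc25a* followed by a number in the table of read counts from murine left atria (LA). Of 54658 gene names in the table, 47 matched. Values are given as CPM, the read count of a gene scaled to the size of its library. Testing required more than 1 CPM in 6 or more of the 12 libraries, a limit that 39 of the 47 met, and those 39 were above 1 CPM in every library. The last gene inside that limit was *Slc25a53*, with a control mean of 2.75 CPM, and the first outside it was *Slc25a31*, with 0.641 CPM. The control mice carried amHC-rtTA, a transactivator expressed from the αMHC promoter. The iNICD mice carried amHC-rtTA;TetO-NICD, in which that transactivator, with doxycycline, turns on the intracellular domain of Notch1. Both groups were littermates of 2 to 3 months of age, and both received doxycycline chow for 3 weeks with no washout. Each group had 6 mice, of which 4 controls and 3 iNICD mice were female and the others male, with a separate library for the LA of each mouse. The promoter acts in cardiomyocytes while the RNA is from whole atrium, so changes in other cells and in cardiomyocytes are summed, and in such bulk samples fewer cells of a type and less RNA per cell cannot be told apart. The comparison asks which carriers differed in transcript level between iNICD and control LA.

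Carriers of this family are small proteins of the inner mitochondrial membrane that exchange metabolites between the cytosol and the matrix. They bring in ADP and phosphate and send out ATP, pass malate, aspartate, glutamate and acylcarnitines across the membrane, and import the iron, nucleotides and cofactors that the matrix needs. The atrium works continuously and draws most of its ATP from mitochondria, and the adenine nucleotide carrier is among the most abundant proteins of heart mitochondria.

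Reads assigned to genes numbered 21432632 to 27182038 per library. *Notch1*, whose sequence the transgene shares, had 2335 to 3311 counts in controls and 71187 to 107667 in iNICD libraries. Transcripts of the mitochondrial genome took 7.52 to 9.59% of counts in controls and 9.60 to 11.2% in iNICD libraries. Control replicate 5 stood apart from the other controls (mean correlation of log2 CPM with its group 0.944, against at least 0.969 for each of the others). Cardiomyocyte markers were high throughout (*Myh6*, 33574 CPM in controls), and of the 10 listed, 9 had log2 fold changes below 0 and 2 passed as lower in iNICD LA, *Tnnt2* and *Myl7*, where 1.34% of all tested genes were lower. The 10 together summed to 83191 to 101266 CPM in controls (median 87440) and 73178 to 85864 CPM in iNICD libraries (median 79139). These ranges overlapped, and *Myh6*, the most abundant of the 10 by CPM, had a log2 fold change of −0.03 ± 0.08 (SE, n = 6 per group). No tested marker of fibroblasts (6), endothelium (6), macrophages (6), mesothelium (5), adipocytes (2) or Schwann cells (3) passed the test, and none of the 4 lung epithelium markers reached the limit for testing. All 6 endothelial and all 5 mesothelial markers had log2 fold changes below 0. Above 0 were 5 of 6 fibroblast and 4 of 6 macrophage markers, both adipocyte markers and all 3 Schwann cell markers. In the list for smooth muscle and pericytes 1 of 6 passed, *Cspg4*, with a log2 fold change of 1.89 ± 0.17 (SE, n = 6 per group), where 2.78% of all tested genes were higher.

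Between the groups, 4 carrier genes differed. *Slc25a45* and *Slc25a34*, whose transported substrates are poorly known, were 2.13-fold and 2.90-fold higher in iNICD LA. *Slc25a37* (mitoferrin-1, which imports iron) and *Slc25a25* (an ATP-Mg/phosphate carrier regulated by calcium) were 1.32-fold and 1.68-fold lower. By the quasi-likelihood test of edgeR, with p-values adjusted by Benjamini-Hochberg over the 13541 genes tested, 4 of 39 carriers (10.3%) passed at 0.05, against 4.12% of all tested genes, with 2 of 39 higher against 2.78% and 2 of 39 lower against 1.34%. The other 35 had log2 fold changes from −0.55 to 0.29, and 29 of the 39 lay within 0.2 of 0. The median log2 fold change was −0.0027 over the carriers and −0.0061 over all tested genes, with 19 carriers above 0 and 20 below. At an unadjusted p under 0.05 there were 11 carriers (28.2%), against 17.4% of all genes. Standard errors of the carriers ran from 0.066 to 0.30.

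**Figure D1:**
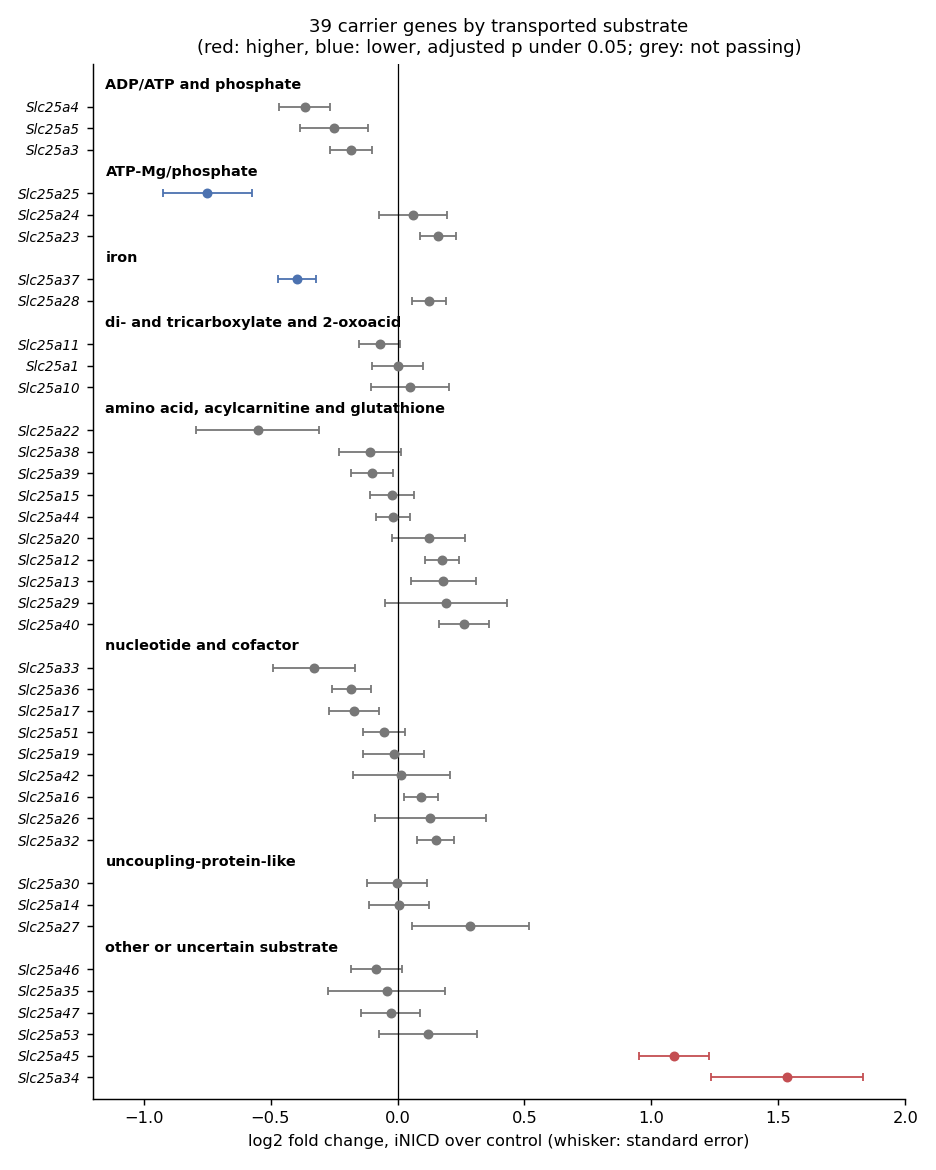
Log2 fold change of each of the 39 tested carriers, iNICD over control, grouped by transported substrate; points are estimates and whiskers standard errors. *Slc25a34* (1.53) and *Slc25a45* (1.09) stand to the right, *Slc25a25* (−0.75) and *Slc25a37* (−0.40) to the left, and most of the others lie close to 0.

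*Slc25a45* had 4.93 to 7.44 CPM in the 6 controls (median 6.09) and 9.75 to 16.3 CPM in the 6 iNICD libraries (median 12.8). Every iNICD library was above every control. The log2 fold change was 1.09 ± 0.14 (SE, n = 6 per group, adjusted p = 0.00049), and the gene passed whichever library was left out. The gene lies on chr19:5877808-5885878 (GRCm38, plus strand). None of the 6 tested genes within 100 kb of it passed, among them the nuclear RNAs *Malat1* and *Neat1*.

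*Slc25a34* had 12.1 to 38.1 CPM in controls (median 26.7) and 52.4 to 112 CPM in iNICD libraries (median 67.5), again without overlap. Controls varied more for this gene than for *Slc25a45*. Replicates 1, 2 and 4, all female, had 12.1 to 19.0 CPM, and replicates 3 (female), 5 and 6 (both male) had 34.4 to 38.1 CPM. The log2 fold change was 1.53 ± 0.30 (SE, n = 6 per group, adjusted p = 0.0116), the highest of the family, and leaving out single libraries gave 1.38 to 1.68. *Slc25a34* lies on chr4:141618824-141623821 (minus strand). The next gene downstream on the same strand, *Tmem82*, begins 190 bases beyond the end of *Slc25a34* and encodes a transmembrane protein. *Tmem82*, named after its values were seen, had 2.43 to 5.00 CPM in controls and 4.05 to 12 CPM in iNICD libraries, with a log2 fold change of 1.17 ± 0.25 (adjusted p = 0.0196). Whether its reads are separate from transcripts of *Slc25a34* was not tested. The other 5 tested genes within 100 kb did not pass.

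**Figure D2:**
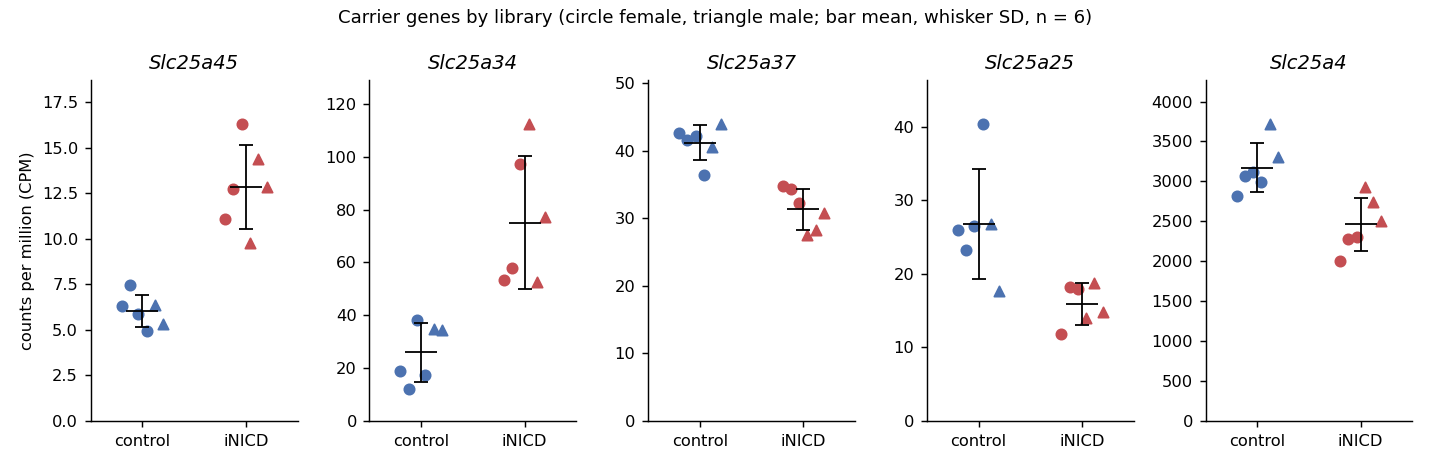
CPM of the 4 carriers that passed the test and of *Slc25a4*, by library; circles are female and triangles male mice, bars are means and whiskers SD over 6 libraries, and all vertical axes start at 0. Groups are apart for *Slc25a45*, *Slc25a34* and *Slc25a37* and overlap for *Slc25a25* and *Slc25a4*.

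The RefSeq promoter windows of the changed genes and of *Slc25a4*, from 250 bases before to 50 bases after the start, are shown because they were searched on both strands for 3 motifs: GTGGGAA (RBPJ, the DNA-binding partner of the Notch intracellular domain), CACGTG (an E-box that HEY and other factors bind) and AAGGTCA (a half-site of estrogen-related receptors, which act on genes of oxidative metabolism). Of the 39 tested carriers 30 had at least 1 window (39 windows, GRCm38.p6), and *Slc25a37* had none. Capitals mark the only match in the 4 windows printed, TGACCTT, the AAGGTCA half-site read on the opposite strand, at bases 132 to 138 of the *Slc25a34* window.
Slc25a34, chr4:141623785-141624084, minus strand: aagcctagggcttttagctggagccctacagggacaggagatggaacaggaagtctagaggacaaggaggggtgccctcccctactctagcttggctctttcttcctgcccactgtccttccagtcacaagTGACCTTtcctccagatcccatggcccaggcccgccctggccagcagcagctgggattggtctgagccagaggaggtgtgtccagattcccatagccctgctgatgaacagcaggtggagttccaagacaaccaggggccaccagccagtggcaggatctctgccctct
Slc25a45, chr19:5877572-5877871, plus strand: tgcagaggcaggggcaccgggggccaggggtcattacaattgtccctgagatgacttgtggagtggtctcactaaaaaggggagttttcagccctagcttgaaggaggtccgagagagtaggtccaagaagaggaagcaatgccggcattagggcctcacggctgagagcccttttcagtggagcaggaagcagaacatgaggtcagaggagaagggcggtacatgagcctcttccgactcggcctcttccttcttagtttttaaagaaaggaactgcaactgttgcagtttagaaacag
Slc25a25, outermost of 3 starts, chr2:32451421-32451720, minus strand: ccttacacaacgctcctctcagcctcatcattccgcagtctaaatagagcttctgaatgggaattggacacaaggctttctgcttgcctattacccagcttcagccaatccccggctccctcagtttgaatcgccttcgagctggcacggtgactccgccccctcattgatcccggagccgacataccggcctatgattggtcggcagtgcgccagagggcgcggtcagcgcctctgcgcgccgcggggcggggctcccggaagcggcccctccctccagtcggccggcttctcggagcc
Slc25a4, chr8:46211013-46211312, minus strand: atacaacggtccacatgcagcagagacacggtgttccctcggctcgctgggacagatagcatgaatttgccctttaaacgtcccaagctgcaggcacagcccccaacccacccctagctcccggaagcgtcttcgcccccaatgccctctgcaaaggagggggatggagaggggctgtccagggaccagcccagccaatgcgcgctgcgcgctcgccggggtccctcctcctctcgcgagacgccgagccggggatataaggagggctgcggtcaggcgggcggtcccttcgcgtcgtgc

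Over all 39 carrier windows, AAGGTCA was in 1 (2.56%), against 4.72% of all 32851 promoter windows in the table. GTGGGAA was in 1 (2.56%, *Slc25a22*), against 6.38% of all windows. CACGTG was in 7 (17.9%), from *Slc25a1*, *Slc25a13*, *Slc25a14*, *Slc25a15*, *Slc25a33* and *Slc25a36*, against 7.15% of all windows, and none of these 6 genes passed the test. A match is a match of letters only, and neither binding nor sites outside the window were measured.

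Of the pair of mitoferrins that import iron into the matrix, *Slc25a37* had 36.4 to 44.0 CPM in controls (median 41.9) and 27.5 to 34.7 CPM in iNICD libraries (median 31.5). All 6 iNICD libraries were below all 6 controls. The log2 fold change was −0.40 ± 0.07 (SE, n = 6 per group, adjusted p = 0.00847), and it ranged from −0.43 to −0.36 with single libraries left out. With *Slc25a45* and *Slc25a34* it made up the 3 of 39 carriers whose groups did not overlap, against 3.83% of all tested genes. Mitoferrin-1 is the main mitoferrin of erythroid cells. The 5 red blood cell markers were all below 0 in log2 fold change (−1.33 to −0.98) with none passing, and they summed to 59.3 to 247 CPM in controls and 27.1 to 138 CPM in iNICD libraries. *Hbb-bs*, a defining marker, had a median of 93.0 CPM in controls and 33.7 CPM in iNICD libraries, and its part in the *Slc25a37* result was not tested. Mitoferrin-2, *Slc25a28*, the more widely expressed of the pair, had 19.1 to 23.5 CPM in controls and 22.2 to 26.0 CPM in iNICD libraries, with a log2 fold change of 0.12 ± 0.07 (adjusted p = 0.373). *Slc25a37* is on chr14:69241848-69285112 (minus strand), and the 4 non-coding names that overlap it in GENCODE M21 had 0 counts in every library.

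Among the ATP-Mg/phosphate carriers, which adjust the adenine nucleotide content of the matrix, *Slc25a25* had 17.7 to 40.3 CPM in controls (median 26.2) and 11.8 to 18.8 CPM in iNICD libraries (median 16.4). Of the 6 controls, 5 were above all iNICD libraries, and control replicate 6 lay among them. The log2 fold change was −0.75 ± 0.18 (SE, n = 6 per group, adjusted p = 0.0316), the lowest of the family. This call was the least secure of the 4: it was lost when control replicate 1, 3 or 4 or iNICD replicate 1, 4 or 6 was left out (adjusted p 0.0501 to 0.0782), with log2 fold changes of −0.84 to −0.59 over all single omissions. Its relative *Slc25a23* had a log2 fold change of 0.16 ± 0.07 (adjusted p = 0.275). *Slc25a25* is on chr2:32414487-32451445 (minus strand), and its 5′ end overlaps *Naif1* on the opposite strand, which had a log2 fold change of −0.04 ± 0.11 (adjusted p = 0.895).

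The most abundant carrier transcript was that of *Slc25a4*, the ADP/ATP carrier of heart and muscle (chr8:46206797-46211284, minus strand). It had 2823 to 3716 CPM in controls (median 3092) and 2004 to 2927 CPM in iNICD libraries (median 2405). Of the 6 iNICD libraries, 5 were below every control, and iNICD replicate 4 lay among them. The log2 fold change was −0.37 ± 0.10 (SE, n = 6 per group) and did not pass (adjusted p = 0.067). It passed in 7 of 24 other settings, and its log2 fold change stayed between −0.45 and −0.31 in all 24. In DESeq2 (adjusted p = 0.00657) and in the exact test of edgeR (adjusted p = 0.0369) it was the fifth carrier to pass, beside the same 4, where 7.82% and 5.69% of all genes passed. With sex as a covariate in edgeR (adjusted p = 0.00426) *Slc25a3* passed as well (adjusted p = 0.0288), making 6 carriers where 4.96% of all genes passed. *Slc25a5*, the ADP/ATP carrier of other cell types, had a log2 fold change of −0.25 ± 0.13 (adjusted p = 0.356), which was −0.11 without control replicate 5, and *Slc25a3*, the phosphate carrier, had −0.18 ± 0.08 (adjusted p = 0.275). A near copy of *Slc25a5*, *Slc25a5-ps*, had 0 to 3 counts per library. The summed cardiomyocyte markers given above also had a lower median in iNICD libraries, with overlapping ranges, and their part in these values was not tested.

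Per kilobase of transcript, the levels of the 39 carriers summed to 1907 to 2352 CPM per kb in controls and 1495 to 2002 in iNICD libraries. *Slc25a4* made up 62.9 to 67.1% of that sum in controls and 57.0 to 62.1% in iNICD libraries, and no iNICD library reached the lowest control share. *Slc25a3* held 8.98 to 9.65% and 9.56 to 10.1%. The summed level and the share depend mostly on *Slc25a4* itself, and they are given as a description with no test.

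**Figure D3:**
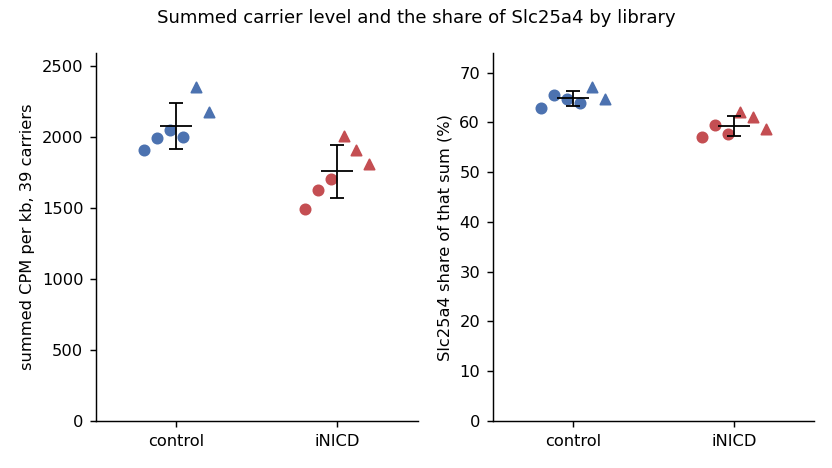
Left, summed level of the 39 carriers in CPM per kb, and right, the percentage of that sum from *Slc25a4*, by library; circles are female and triangles male mice, bars are means and whiskers SD over 6 libraries. The share was 62.9% or more in every control and 62.1% or less in every iNICD library.

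Levels in control LA spanned from 1348 CPM per kb for *Slc25a4* (SD 132, n = 6) to 0.345 for *Slc25a53*, an X-linked carrier of unknown substrate. After *Slc25a4* came *Slc25a3* at 196, *Slc25a11*, the oxoglutarate carrier of the malate-aspartate shuttle, at 125, *Slc25a5* at 72.1 and *Slc25a39*, which imports glutathione, at 49.6 CPM per kb. *Slc25a12* followed at 34.7 and *Slc25a23* at 33.0. Only 6 of the 38 neighbouring pairs in this order had control ranges that were apart, 5 of them among the 8 highest genes, so the order within the middle of the list is not resolved. *Slc25a34* rose from 9.71 CPM per kb in controls to 28.1 in iNICD LA and *Slc25a45* from 2.28 to 4.85.

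**Figure D4:**
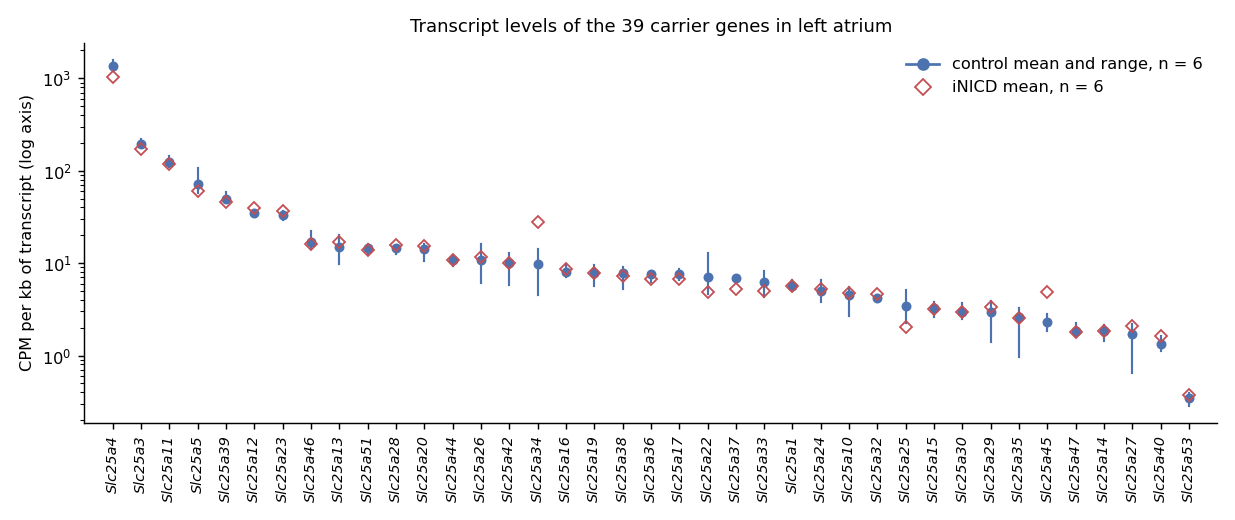
Level of the 39 carriers in CPM per kb of transcript on a log axis, in falling order of the control mean; filled circles and lines are the control mean and range and open diamonds the iNICD mean, with 6 libraries per group. *Slc25a4* stands above the rest at 1348 CPM per kb, and the diamonds of *Slc25a34* and *Slc25a45* lie above the control range.

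No carrier of the di- and tricarboxylate, amino acid, nucleotide or uncoupling-protein-like groups passed the test. The 3 tested carriers of di- and tricarboxylates and 2-oxoacids had log2 fold changes from −0.07 to 0.05, the former that of *Slc25a11* (−0.07 ± 0.08, adjusted p = 0.700). Among the 10 for amino acids, acylcarnitines and glutathione the range was −0.55 to 0.26 with a median of 0.05. The aspartate/glutamate carrier *Slc25a12* had 239.9 to 274 CPM in controls and 264 to 318 CPM in iNICD libraries, 4 of which were above every control, with a log2 fold change of 0.18 ± 0.07 (adjusted p = 0.176). Its paralogue *Slc25a13* (citrin) had 0.18 ± 0.13 (adjusted p = 0.499; 0.08 without control replicate 5). *Slc25a22*, a glutamate carrier, had the lowest value of the group, −0.55 ± 0.24 (adjusted p = 0.265), with 77.8 CPM in control replicate 5, well above the remaining controls at 27.7 to 43.7 CPM, and without that library it was −0.29. *Slc25a39* and *Slc25a40*, both linked to glutathione import, had −0.10 ± 0.08 and 0.26 ± 0.10 (adjusted p = 0.557 and 0.181), the former −0.04 without control replicate 5.

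The 9 carriers of nucleotides and cofactors had log2 fold changes from −0.33 to 0.15. Lowest was *Slc25a33*, a pyrimidine nucleotide carrier (−0.33 ± 0.16, adjusted p = 0.310), and its relative *Slc25a36* had −0.18 ± 0.08 (adjusted p = 0.242). The highest-level member was *Slc25a51*, which imports NAD, with −0.05 ± 0.08 (adjusted p = 0.776). The 3 uncoupling-protein-like genes had −0.003 to 0.29, the last for *Slc25a27* (0.29 ± 0.23, adjusted p = 0.554; 0.12 without control replicate 5), and the most abundant of them, *Slc25a30*, had −0.003 ± 0.12 (adjusted p = 0.994). In the group of other or uncertain substrates, which also holds *Slc25a34* and *Slc25a45*, *Slc25a46*, a carrier relative of the outer membrane, had the highest level in controls and a log2 fold change of −0.08 ± 0.10 (adjusted p = 0.709). The remaining 8 names were under the limit. *Slc25a31*, the germ cell ADP/ATP carrier, had 5 to 32 counts and exceeded 1 CPM in 3 libraries, *Slc25a2*, *Slc25a18*, *Slc25a21*, *Slc25a41*, *Slc25a43* and *Slc25a48* had 0 to 11 counts per library, and *Slc25a54* had 0 counts in all 12.

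Ratios within 6 pairs of close relatives were compared by two-sided exact permutation of the libraries, which cannot give a p below 0.00216 for 6 against 6, and adjusted over the 6 pairs. The ratio of *Slc25a28* to *Slc25a37* reads, the 2 mitoferrins, was 0.459 to 0.634 in controls and 0.641 to 0.874 in iNICD libraries. The groups did not overlap, although their edges nearly touched, and the log2 difference was 0.52 (exact permutation p = 0.00216, the smallest possible, adjusted 0.013). These reads were not scaled by transcript length, and per kb the control means were 14.5 CPM for *Slc25a28* and 6.85 CPM for *Slc25a37*. The ratio of *Slc25a23* to *Slc25a25* was 4.58 to 9.87 in controls and 9.86 to 15.7 in iNICD libraries, a log2 difference of 0.88 (exact permutation p = 0.00433, adjusted 0.013). These contrasts contain the calls for *Slc25a37* and *Slc25a25* and are not separate evidence for them. The ratio of *Slc25a39* to *Slc25a40* had a log2 difference of −0.37 (exact permutation p = 0.0281, adjusted 0.0563) and did not pass. *Slc25a4* over *Slc25a5* (−0.15), *Slc25a12* over *Slc25a13* (−0.04) and *Slc25a36* over *Slc25a33* (0.13) did not pass either (adjusted exact permutation p = 0.409, 0.866 and 0.519). *Slc25a22* over *Slc25a18* was not tested, since *Slc25a18* had at most 6 counts.

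**Figure D5:**
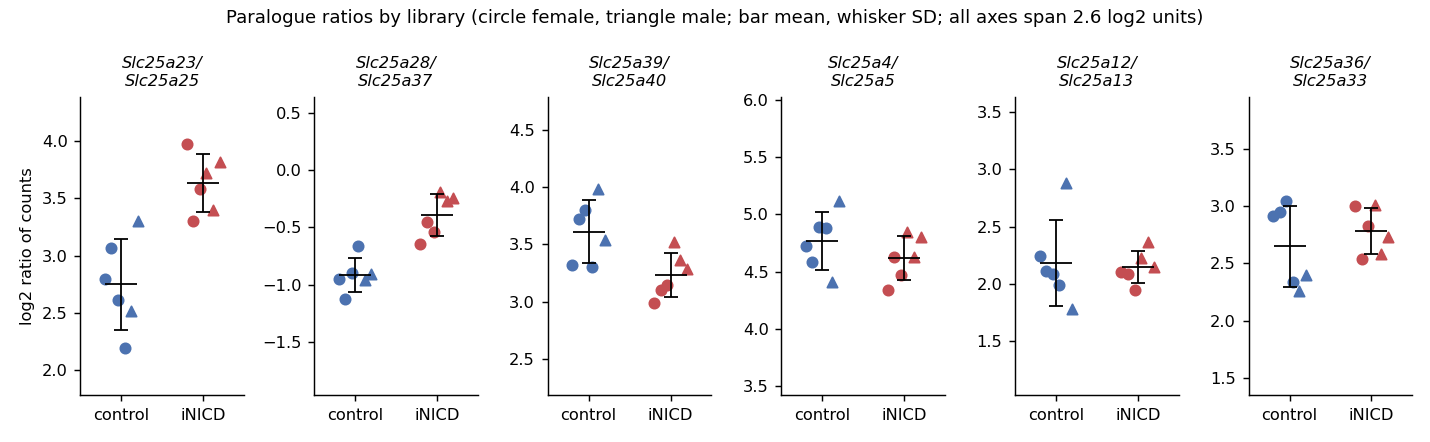
Log2 ratio of the counts of 6 pairs of related carriers by library; circles are female and triangles male mice, bars are means and whiskers SD over 6 libraries, and all vertical axes span the same number of log2 units. The mean ratios of *Slc25a23* to *Slc25a25* and of *Slc25a28* to *Slc25a37* were higher in iNICD libraries by 0.88 and 0.52.

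The direction of all 4 changed carriers was the same in both sexes. With fewer libraries *Slc25a45* alone of them passed in females (*Slc25a34*, adjusted p = 0.0575 in edgeR) and none of the 4 in males. The 4 were chosen on these same libraries, so the shared direction is not separate evidence for them. In females and males the log2 fold change was 1.12 ± 0.18 and 1.06 ± 0.24 for *Slc25a45*, and 1.68 ± 0.38 and 1.21 ± 0.33 for *Slc25a34*. It was −0.27 ± 0.08 and −0.56 ± 0.12 for *Slc25a37*, and −0.86 ± 0.23 and −0.50 ± 0.24 for *Slc25a25*. A test of the difference between the sexes passed for 0 of 39 carriers after adjustment in edgeR and 0 in DESeq2 (lowest adjusted p = 0.916 in edgeR). The unadjusted p was under 0.05 for 1 carrier in each tool, *Slc25a37* in edgeR, against 3.70% and 4.53% of all genes.

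Control replicate 5 was the lowest control for 16 of the 39 carriers and the highest for 10, where an even spread over 6 libraries would place it at each end for 6.5. Control replicate 6 was the highest control for 11, and iNICD replicate 1 the lowest iNICD library for 11. Control replicate 5 was highest for *Slc25a4*, *Slc25a3* and *Slc25a5* and lay inside the range of the other controls for all 4 carriers that passed. Without it 5 carriers passed, against 5.90% of all genes, the additional gene being *Slc25a36* (log2 fold change −0.23, adjusted p = 0.0376). Among carriers that did not pass, its omission moved *Slc25a22*, *Slc25a5*, *Slc25a13*, *Slc25a27* and *Slc25a39* over 1.5 times closer to 0, *Slc25a29* from 0.19 to 0.05, *Slc25a26* from 0.13 to 0.006, and *Slc25a46* and *Slc25a30* to 0.002 and 0.08. *Slc25a35* and *Slc25a38* moved away from 0, from −0.04 to −0.215 and from −0.11 to −0.20. The ratio of *Slc25a36* to *Slc25a33* described above fell from 0.13 to 0.05 on the log2 scale, and that of *Slc25a12* to *Slc25a13* went from −0.04 to 0.10. The median coefficient of variation of the carriers in controls was 14.3% with it and 10.3% without it.

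Among genes that act beside the carriers, 4 of 82 tested passed, all higher, which is 4.88%. Of all tested genes, 4.12% passed in either direction and 2.78% were higher. Without control replicate 5, 6 genes beside the carriers were higher, where 5.90% of all genes passed in either direction. Of 10 regulators of mitochondrial gene expression, *Ppargc1b*, a coactivator of estrogen-related receptors, had 7.68 to 11.6 CPM in controls and 17.1 to 22.4 CPM in iNICD libraries (log2 fold change 0.88 ± 0.11, adjusted p = 0.000451). *Tfam*, which packages and transcribes the mitochondrial genome, had 44.8 to 47.2 and 51.1 to 63.0 CPM (0.36 ± 0.06, adjusted p = 0.00245). The groups did not overlap for either gene. Of 10 shuttle enzymes, *Cpt1b*, which makes long-chain acylcarnitines, rose by 1.04 ± 0.14 on the log2 scale (adjusted p = 0.000871), and of 9 outer membrane channels and kinase partners *Tspo*, a cholesterol-binding protein, rose by 0.32 ± 0.06 (adjusted p = 0.013). None of 16 ATP synthase subunits (highest level per kb *Atp5a1*, 0.07 ± 0.08, adjusted p = 0.693), 15 import and folding factors of carriers (*Timm8b*, −0.03 ± 0.06, adjusted p = 0.811), 18 other inner membrane transport genes (*Smdt1*, 0.16 ± 0.06, adjusted p = 0.168) or 4 carriers with other names (*Ucp2*, −0.41 ± 0.17, adjusted p = 0.216) passed.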

How the data were processed

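RNA from the LA of 12 mice was depleted of ribosomal RNA and sequenced by the authors as stranded single-end reads. The submitters' processing notes name cutadapt, STAR 2.4.2a, Subread with featureCounts, edgeR and the build mm10, and the paper's methods describe 2 routes for the LA, STAR with featureCounts on uniquely aligned reads and TopHat2 with HTSeq leaving out mitochondrial reads. The table holds 30 mitochondrial genome names with counts, which the second route as described would not give; it names no counter and no strand setting. The deposited values are raw counts per gene name, not normalized, with a length in bases per name, also deposited by the authors (a unit other than counts), which was used only for levels per kb. Groups and replicate numbers were taken from the titles, and sex from the descriptions. The members and lists were chosen with earlier results of these data known.

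Genes exceeding 1 CPM in 6 or more libraries were compared with edgeR 4.0.16 (TMM normalization, quasi-likelihood test, two-sided, all 12 libraries, no covariate) in R 4.3.3, with Benjamini-Hochberg adjustment at 0.05. CPM are counts over TMM-scaled totals, and SE are of log2 fold changes. Paralogue ratios used a pseudocount of 0.5 and exact permutation of 924 arrangements. Positions are from GENCODE M21 (GRCm38) and promoters from RefSeq (GRCm38.p6). Alternatives were DESeq2 1.42.0, edgeR's exact test, 2 normalizations, 2 filters, a replicate block, a term for sex, each sex alone, counts without the mitochondrial genome, a ratio pseudocount of 5 and each library left out. Tested on simulated counts (iNICD against control, 13431 genes), the test recovered 84.9% of 2-fold and 96.8% of 4-fold changes, with 4.74% of calls false, and the interaction with sex recovered 35.3% and 86.7% (13412 genes).

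Named carriers are those that passed or whose groups did not overlap, the 5 highest control levels, the highest-level gene of each substrate group, the 3 highest and 3 lowest log2 fold changes and both genes of each pair; *Slc25a26*, *Slc25a29*, *Slc25a35* and *Slc25a38* were named after their values were seen, *Slc25a53* as the last gene inside the limit and the lowest level, and others for a promoter motif or, under the limit, by counts only. Of other lists those that passed are named, or the highest-level gene. No 2 libraries of a group were copies (lowest chi-square per gene 14.4). The right atrium was not analysed here.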

Additional observations from a re-analysis of the deposited data

Results flagged for a closer look

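Of 78 sets of 6 libraries (39 carriers in each group), 4 held a library whose gap to its nearest neighbour, divided by the whole range, exceeded the limit of Dixon's test; by chance alone about 1 in 20, here 3.9, would. In 3 of the 4 the library was control replicate 5. *Slc25a22* had 77.8 CPM there, against 27.7 to 43.7 in the other controls, *Slc25a35*, an orphan carrier, had 3.5 CPM against 9.46 to 12.1, and *Slc25a39* had 164 CPM against 127 to 137. In iNICD replicate 1, *Slc25a35* had 11.5 CPM against 8.68 to 9.55 in the other iNICD libraries. None of these genes passed the test with or without control replicate 5.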

How the results depend on the processing

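Over 32 results and 661 alternative values, 605 kept direction and side of the threshold or, for counts, stayed within 1.5 times. The count of higher carriers was 2 in all settings but females only (1, *Slc25a34* being lost at an adjusted p of 0.0575) and males only (0); the count of lower carriers, 2, became 4 with sex as a covariate (adding *Slc25a4* and *Slc25a3*), 3 in DESeq2, the exact test, upper quartile normalization and the replicate block by description number (adding *Slc25a4*), 1 with the block by title number (*Slc25a37*), 1 in females (*Slc25a4*, with *Slc25a37* and *Slc25a25* both lost), 0 in males, and 1 to 3 with single libraries left out. In males only 8 genes were called in all, so that setting says little about the carriers. Not every pair of same-numbered samples deviated together (mean correlation 0.121 by title, 4 of 6 pairs over 0.1, 3 of 6 controls closest to their own number), so the number was not treated as a pairing. The replicate block ended the call of *Slc25a25* by title number (adjusted p = 0.068) and not by description number, gave 3 and 5 carriers among 468 and 421 called genes (3.46% and 3.11%), and left the ratios of *Slc25a23* to *Slc25a25* at 0.88 and of *Slc25a28* to *Slc25a37* at 0.52 with adjusted exact permutation p of 0.0938 each; sign flips of 6 pairs cannot give an unadjusted p below 0.0312, which both reached, so the loss says nothing about stability. Those ratios were 0.95 and 0.36 in females, not passing after adjustment (smallest unadjusted p possible 0.0286), and 0.73 and 0.69 in males, where no p below 0.1 is possible. With single libraries left out, *Slc25a39* to *Slc25a40* ranged from −0.43 to −0.297 (passing 3 times, against none in the full set), *Slc25a4* to *Slc25a5* from −0.22 to −0.08 (−0.29 in females, −0.003 in males) and *Slc25a12* to *Slc25a13* from −0.115 to 0.10, while *Slc25a36* to *Slc25a33* was −0.027 in females. Small values moved with single libraries too, as for *Slc25a28* (0.08 to 0.14), *Slc25a11* (−0.11 to −0.02) and *Slc25a51* (−0.10 to −0.014). *Slc25a30*, near 0, changed sign under the description block (0.000204), in females (0.12) and without single libraries (−0.055 to 0.077), as did *Slc25a46* without control replicate 5 (−0.13 to 0.0019 over single omissions). Beside the carriers, DESeq2 called 6 higher genes and 1 lower, against 4 and 0, the title block 3 higher and the fit without control replicate 5 called 6 higher; DESeq2 called 1059 genes in all; the cause of these shifts was not tested. Whether more depth would resolve the 8 carriers under 1 CPM was not tested.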
